A study of Homo sapiens with 15 samples.

Results

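De novo nucleotide synthesis was described through 10 of its enzymes in OCI-AML5, an established human acute myeloid leukaemia line. The genes were PPAT, GART, PAICS, ATIC, IMPDH1 and IMPDH2 of the purine route and CAD, DHODH, UMPS and CTPS1 of the pyrimidine route. They were found by gene symbol among the 19620 entries of each of 2 deposited expression tables, where each symbol had 1 row. All 10 were tested, since each averaged at least 1 FPKM across an experiment's libraries. FPKM counts sequenced fragments relative to transcript length and to the size of the library. The tables name no unit, and this one was inferred from the tools listed for the study.

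The 15 RNA libraries formed 5 groups of 3, all of cells grown with 20% serum and the cytokine GM-CSF at 10 ng/mL. In the drug experiment, cells had 4 h with 1000 nM ARV-825, 4 h with 1000 nM OTX015, or no treatment. No vehicle is named for the untreated control. OTX015 blocks the bromodomains of BET proteins, which read acetylated histones and help start productive transcription. ARV-825 is a chimera of OTX015 and a ligand of the ubiquitin ligase subunit cereblon, and it directs BET proteins to degradation. In the second experiment, cells carried an shRNA against RUNX1, a transcription factor of blood formation, or a non-targeting shRNA (shNT) for 72 h. A single cell line was used throughout, and the labels do not say whether the RUNX1 shRNA was 1 sequence or a pool.

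Cells build purines on a ribose phosphate called PRPP, through a chain of steps that ends in inosine monophosphate (IMP), from which adenine and guanine nucleotides branch. Pyrimidines are made first as a ring, which is then joined to PRPP to give uridine nucleotides and, from these, cytidine nucleotides. Growing cells depend on both routes for RNA and DNA. Several of the genes are textbook targets of the transcription factor MYC, and drugs against DHODH and IMPDH are in use or under study as antiproliferative or immunosuppressive agents.

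Of the libraries, ARV-825 replicate 1 listed 6 of 13 mitochondrially encoded genes at 0, and no other library listed any of them at 0. Correlations of log2 values across genes were 0.978 to 0.997 within groups of the drug experiment and 0.994 to 0.997 within groups of the shRNA experiment. The lowest, 0.9779 and 0.9787, were those of ARV-825 replicate 1 with ARV-825 replicates 2 and 3. The next was 0.9908, between ARV-825 replicates 2 and 3. FPKM summed to between 596347 and 656995 in a drug library and between 554570 and 651372 in an shRNA library. The median FPKM of a library was 1.80 to 1.92 with ARV-825, 2.06 to 2.10 with OTX015 and 2.15 to 2.20 in control. It was 2.52 to 2.56 with RUNX1 shRNA and 2.57 to 2.58 with shNT. Sums and medians thus differed between libraries, although the values were read as quantile normalized, and the cause was not tested. The number of reads behind these values is unknown, so no counting interval can be given. Of 10 myeloid markers, 9 had a mean of at least 1 FPKM in both experiments, and ANPEP did not. Lysozyme (LYZ) was the highest, at 493 FPKM in the drug experiment and 454 FPKM in the shRNA experiment. The summed level of the myeloid markers ran from 609 to 1036 FPKM over the drug libraries and from 803 to 961 FPKM over the shRNA libraries. No erythroid, epithelial or fibroblast marker (0 of 10) reached 1 FPKM. In the drug experiment 1 of 4 B lymphocyte markers and 2 of 5 markers of T or NK lymphocytes did, with NCAM1 highest at 15.2 FPKM. The part of these markers in the results was not tested. MYC, a known BET inhibitor response gene, stood at 21.4 to 24.1 FPKM with ARV-825, 111 to 114 FPKM with OTX015 and 281 to 295 FPKM in control. It stood at 208 to 216 FPKM with RUNX1 shRNA and 258 to 264 FPKM with shNT. The titles of the RUNX1 shRNA libraries name Runx3, while their treatment label names RUNX1. RUNX1 was at 36.0 to 42.9 FPKM with RUNX1 shRNA, against 69.8 to 72.2 FPKM with shNT. RUNX3 was at 27.9 to 29.3 FPKM with RUNX1 shRNA, against 25.02 to 28.5 FPKM with shNT, so the values of RUNX1 separate the groups and those of RUNX3 overlap.

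In untreated cells the 10 genes formed a ladder of levels. FPKM is scaled by transcript length, so levels of different genes can be set side by side. IMPDH2, the IMP dehydrogenase that commits IMP to guanine nucleotides, was highest at 268 ± 7.38 FPKM (mean ± SD, n = 3 libraries in this and every group). PAICS, a bifunctional enzyme of the middle of the purine chain, followed at 115 ± 2.63 FPKM. ATIC, which closes the purine ring, was at 71.1 ± 2.83 FPKM and IMPDH1, the second IMP dehydrogenase, at 63.5 ± 1.68 FPKM. GART, which carries 3 activities of the purine chain in 1 protein, was at 51.1 ± 1.55 FPKM, and CTPS1, which makes CTP from UTP, at 40.5 ± 2.24 FPKM. CAD, the protein that holds the first 3 pyrimidine activities, was at 27.0 ± 1.01 FPKM, and UMPS, which makes uridine monophosphate, at 20.5 ± 0.748 FPKM. PPAT, the amidotransferase of the committed purine step, was at 15.6 ± 1.95 FPKM. DHODH, the mitochondrial dehydrogenase of the pyrimidine ring, was lowest at 6.50 ± 0.677 FPKM. No pair of neighbours in this order had overlapping ranges in control. With ARV-825 the ranges of IMPDH1 and ATIC, and of UMPS and PPAT, overlapped. With OTX015 those of IMPDH1 and ATIC, CTPS1 and GART, UMPS and CAD, and CAD and PPAT overlapped.

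**Figure D1:**
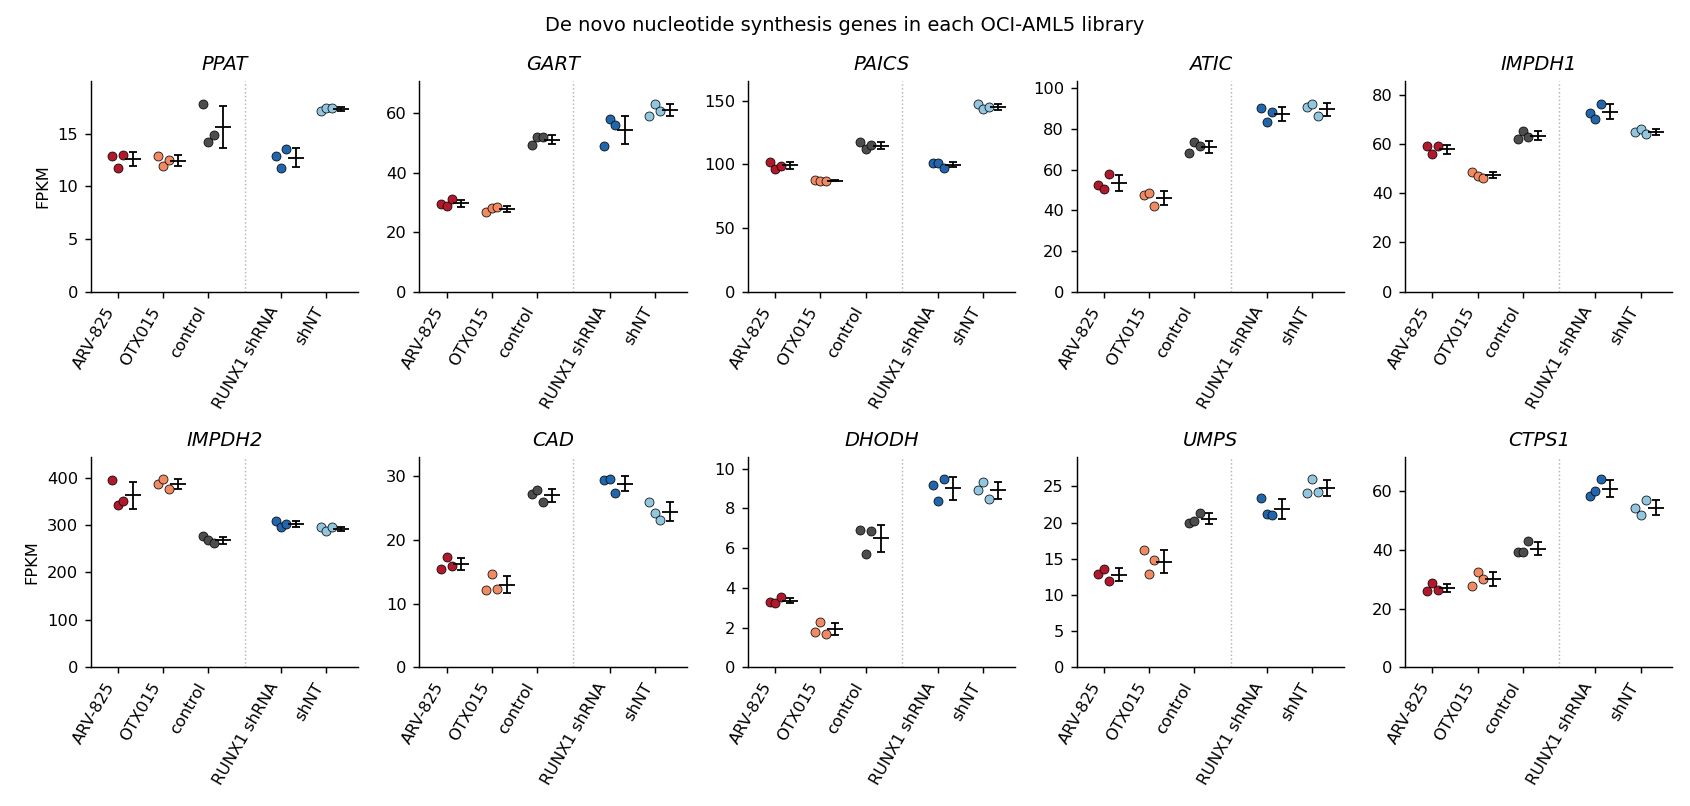
FPKM (vertical axis, from 0) of each gene in every library, by group (horizontal axis). Dots are libraries, bars beside them are the mean ± SD of 3 libraries, and the dotted line divides the drug experiment from the separately normalized shRNA experiment. In the drug experiment 9 genes lie lower in all treated libraries than in control and IMPDH2 lies higher. Of all tested genes, 76.2% with ARV-825 and 75.3% with OTX015 did not overlap control. PPAT and PAICS are the genes that stand lowest against shNT with RUNX1 shRNA.

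The promoters are shown because PPAT and PAICS are neighbours read in opposite directions, and because 4 of the genes hold the hexamer CACGTG, the E-box form that MYC and its partner MAX are known to bind. RefSeq windows (build GRCh38.p14) of 250 bases before and 50 bases after each annotated start were available for 9 of the 10 genes, and none is given here for IMPDH2. The expression tables use another build (hg19), so the windows were taken by gene symbol. CACGTG, which reads the same on both strands, was in a window of 4 of 9 genes (PPAT, PAICS, ATIC and DHODH). The PPAT and PAICS matches are the same site, counted for both genes. Of all 27305 genes with a window, 2396 (8.77%) held CACGTG in at least 1 window. A gene with several starts has several windows, and of all 35116 windows 2548 (7.26%) held CACGTG. The windows of GART, IMPDH1, CAD, UMPS and CTPS1 did not hold CACGTG. Bases beyond the windows were not searched, so these genes may hold it further than 50 bases after a start. RefSeq lists 3 starts for PAICS and 3 for GART, and the PAICS start used here is the one that faces PPAT. A match is a description of the sequence and not evidence of binding.

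On chromosome 4 the PPAT start (56435615, minus strand) and the PAICS start (56435752, plus strand) are 137 bases apart. The first line below gives the 136 bases between them, read on the plus strand at chr4:56435616-56435751. The second gives 30 bases at chr4:56435772-56435801, plus strand, around the CACGTG that begins at base 41 of PAICS, counting its start as 1. The same site is at position -182 relative to the PPAT start. Capitals mark CACGTG in these and the following lines.
Between PPAT and PAICS: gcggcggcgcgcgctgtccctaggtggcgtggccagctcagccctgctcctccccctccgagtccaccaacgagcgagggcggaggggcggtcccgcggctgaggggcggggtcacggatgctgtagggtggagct
PPAT and PAICS shared site: ctggaaagctgtatttgctgCACGTGgaaa

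ATIC held CACGTG at positions -46 and 30 relative to its start, and DHODH at position -159. The lines give the 250 bases upstream of ATIC (chr2:215311809-215312058, plus strand), 30 bases around its second site (chr2:215312076-215312105, plus strand) and the 250 bases upstream of DHODH (chr16:72008494-72008743, plus strand).
ATIC upstream: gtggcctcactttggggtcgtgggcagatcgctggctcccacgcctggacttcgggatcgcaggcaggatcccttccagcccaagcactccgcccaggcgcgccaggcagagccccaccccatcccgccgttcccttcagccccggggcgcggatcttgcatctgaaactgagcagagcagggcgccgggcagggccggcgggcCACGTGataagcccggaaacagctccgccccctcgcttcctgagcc
ATIC second site: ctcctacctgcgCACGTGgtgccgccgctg
DHODH upstream: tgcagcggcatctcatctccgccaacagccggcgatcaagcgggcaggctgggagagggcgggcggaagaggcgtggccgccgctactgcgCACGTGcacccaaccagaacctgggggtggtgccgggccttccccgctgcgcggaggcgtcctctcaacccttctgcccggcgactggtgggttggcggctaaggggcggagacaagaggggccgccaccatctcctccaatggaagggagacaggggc

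ARV-825 for 4 h was compared with no treatment. BET proteins themselves were not measured. Of the 10 genes, 9 fell and IMPDH2 rose. Among all 10819 tested genes, 38.4% were called lower and 35.8% higher, by limma on log2(FPKM + 1) with Benjamini-Hochberg adjustment over all tested genes at 0.05, 74.2% in all. The median log2 change was -0.48 over the 10 genes and -0.0080 over all tested genes. The 3 ARV-825 libraries lay wholly above or below the 3 control libraries for 10 of 10 genes, and for 76.2% of all tested genes. None of the 10 (0) was called lower by at least 2-fold on the log2(FPKM + 1) scale, beside 8.16% of all tested genes. In bulk RNA, fewer cells with a transcript and less of it per cell cannot be told apart, and quantile normalization hides a change in total RNA per cell. All changes below are log2 changes of FPKM + 1 with their standard error.

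Along the purine chain the falls differed in size. PPAT had 12.9, 11.8 and 12.98 FPKM with ARV-825, against 17.9, 14.2 and 14.9 FPKM in control. All treated libraries were lower, and control replicate 1 stood above the other two controls. The change was -0.29 ± 0.081 (adjusted p = 0.00727, limma). GART had 29.5, 28.8 and 31.1 FPKM with ARV-825, against 49.4, 51.9 and 52.2 FPKM in control. Among the purine genes of the 10 it fell furthest, with a difference of means of -41.7% (log2 change -0.76 ± 0.046, adjusted p = 1.05e-07, limma). The gap between the groups was wide. PAICS had 102, 96.5 and 98.6 FPKM with ARV-825, against 117, 112 and 115 FPKM in control. The groups were apart but close, with a change of -0.21 ± 0.037 (adjusted p = 0.000403, limma). ATIC had 52.4, 50.4 and 57.9 FPKM with ARV-825, against 68.0, 73.6 and 71.6 FPKM in control, which gave -0.40 ± 0.066 (adjusted p = 0.000212, limma).

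The IMP dehydrogenase genes moved in opposite directions. IMPDH2 had 394, 343 and 351 FPKM with ARV-825, against 276, 268 and 261 FPKM in control. Every treated library was higher, with replicate 1 highest, and the change was 0.43 ± 0.056 (adjusted p = 3.76e-05, limma). IMPDH1 had 59.1, 55.9 and 59.1 FPKM with ARV-825, against 62.1, 65.4 and 63.1 FPKM in control. This was the smallest of the 10 changes, at -0.13 ± 0.041 (adjusted p = 0.0148, limma). It did not pass without ARV-825 replicate 2 (-0.10, adjusted p = 0.0594, limma) or without control replicate 2 (-0.11, adjusted p = 0.0614, limma).

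The 4 pyrimidine genes fell, with log2 changes between -0.78 and -0.56. CAD had 15.4, 17.3 and 15.9 FPKM with ARV-825, against 27.2, 27.9 and 25.9 FPKM in control (log2 change -0.70 ± 0.073). DHODH had 3.31, 3.26 and 3.52 FPKM with ARV-825, against 6.92, 5.72 and 6.87 FPKM in control (-0.78 ± 0.096). Of the 10 genes it had the largest change on this scale, with a difference of means of -48.3%. Its lead over GART was small. Without control replicate 1 GART changed more (-0.785 against -0.738 for DHODH), as it did without control replicate 3 (-0.745 against -0.743). UMPS had 12.9, 13.6 and 11.9 FPKM with ARV-825, against 20.0, 20.2 and 21.4 FPKM in control (-0.64 ± 0.078). CTPS1 had 26.2, 28.7 and 26.5 FPKM with ARV-825, against 39.1, 39.2 and 43.1 FPKM in control (-0.56 ± 0.066). For all 4 the treated libraries lay below every control library, and adjusted p ran from 6.31e-06 for CAD to 2.49e-05 for DHODH (limma).

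OTX015, the bromodomain inhibitor from which ARV-825 was built, was compared with the same control libraries. Again 9 of the 10 genes fell and IMPDH2 rose, beside 33.5% of all tested genes called lower and 36.1% called higher, 69.6% in all. Both comparisons share their controls, so their likeness is partly built in. The median log2 change was -0.44 over the 10 genes and 0.032 over all tested genes. The OTX015 and control libraries did not overlap for 10 of 10 genes and for 75.3% of all tested genes.

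In the purine chain GART had 26.7, 28.3 and 28.5 FPKM with OTX015, and its change from control was -0.85 ± 0.046 (adjusted p = 6.73e-08, limma). PPAT had 12.9, 11.9 and 12.5 FPKM with OTX015, with a change of -0.30 ± 0.081 (adjusted p = 0.0063, limma). PAICS had 87.7, 87.0 and 86.5 FPKM with OTX015, with a change of -0.39 ± 0.037 (adjusted p = 4.28e-06, limma). These PAICS values are the tightest of any group for that gene. ATIC had 47.3, 48.4 and 41.9 FPKM with OTX015, with a change of -0.62 ± 0.066 (adjusted p = 9.72e-06, limma). IMPDH1 had 48.7, 47.0 and 46.5 FPKM with OTX015 and fell by 0.42 on the log2 scale (SE 0.041, adjusted p = 5.7e-06, limma). IMPDH2 went the other way, with 387, 397 and 377 FPKM with OTX015 and a change of 0.53 ± 0.056 (adjusted p = 1.05e-05, limma), all libraries above every control.

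Of the pyrimidine genes, DHODH fell furthest of the 10, with 1.80, 2.29 and 1.70 FPKM with OTX015 (log2 change -1.36 ± 0.096, adjusted p = 4.9e-07, limma). The difference of means from control was -70.3%. CAD had 12.1, 14.6 and 12.3 FPKM with OTX015 (-1.01 ± 0.073, adjusted p = 5.68e-07, limma), a difference of means of -51.9%. DHODH and CAD, which act next to each other in the route, were the only ones of the 10 to change by at least 2-fold on this scale, beside 4.96% of all tested genes called lower by as much. CAD was at this limit, and came to less than 2-fold without OTX015 replicate 1 (-0.96), OTX015 replicate 3 (-0.97) or control replicate 2 (-0.98), and marginally without control replicate 1. UMPS had 16.1, 12.9 and 14.8 FPKM with OTX015 (-0.47 ± 0.078, adjusted p = 0.000296, limma). CTPS1 had 27.6, 32.5 and 30.02 FPKM with OTX015 (-0.42 ± 0.066, adjusted p = 0.000188, limma).

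**Figure D2:**
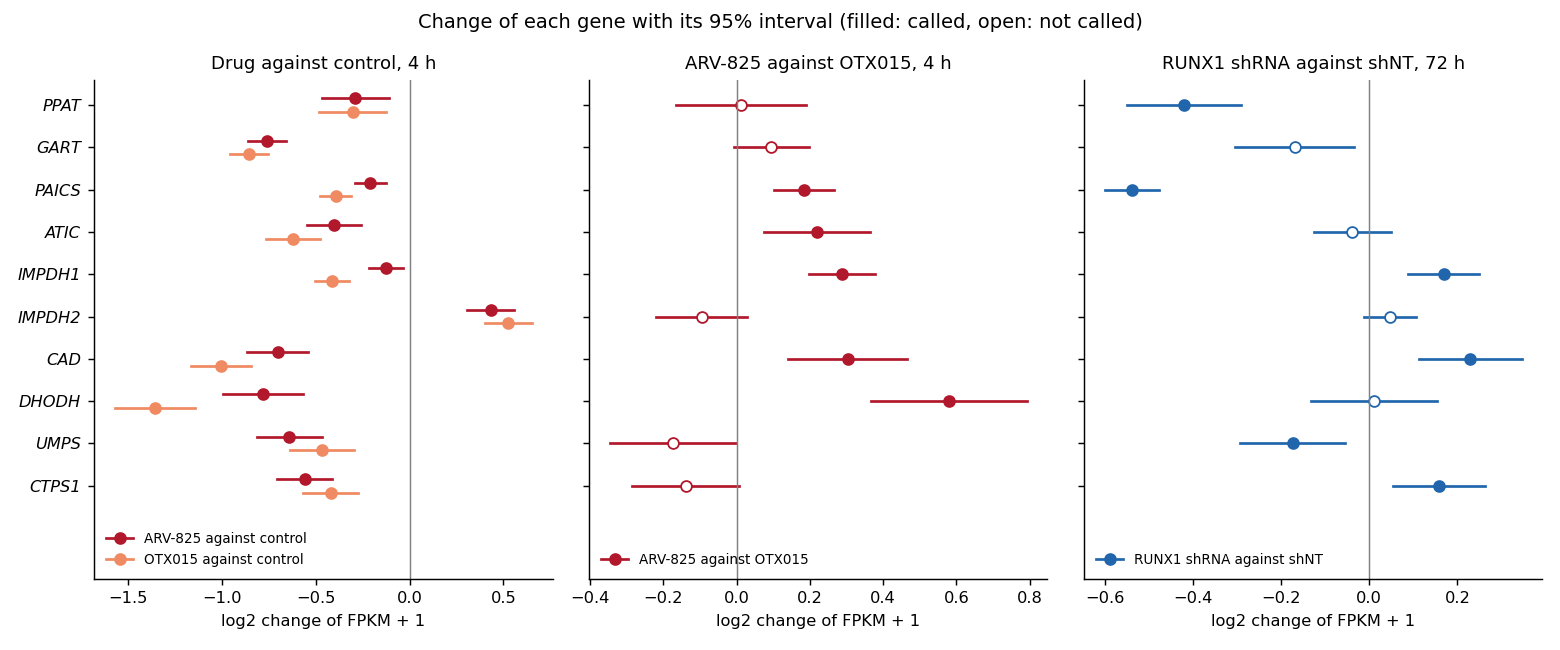
Log2 change of FPKM + 1 (horizontal axis) of each gene, with its 95% interval from limma, for each drug against control, ARV-825 against OTX015, and RUNX1 shRNA against shNT. Filled points passed an adjusted p of 0.05 and open points did not, and the horizontal scale differs between the panels. DHODH and CAD lie furthest to the left with OTX015, at -1.36 and -1.01, and IMPDH2 alone lies to the right of 0 with both drugs.

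The compounds were compared directly at their common dose and time, 1 pair with p-values adjusted over all tested genes. They differ in that ARV-825 carries a linker and a cereblon ligand in addition to the BET-binding part. Of the 10 genes, 5 were higher with ARV-825 than with OTX015 and 0 were lower, beside 24.7% of all tested genes called higher and 33.4% called lower, 58.1% in all. None of the 10 (0) was lower by at least 2-fold, beside 1.05% of all tested genes. The libraries of the compounds did not overlap for 6 of 10 genes and for 62% of all tested genes. The median log2 difference was 0.14 over the 10 genes and -0.040 over all tested genes. The falls against control in these 5 genes were therefore smaller with ARV-825. Estimates for UMPS and CTPS1 went the other way and did not pass. MYC was lower with ARV-825 than with OTX015 (log2 difference -2.25 ± 0.048, adjusted p = 1.47e-09, limma). Whether MYC had a part in the changes of the 10 genes was not tested. Among the 10 genes the largest difference was in DHODH, at 3.36 ± 0.136 FPKM with ARV-825 and 1.93 ± 0.313 FPKM with OTX015 (0.58, 95% interval 0.366 to 0.792, adjusted p = 0.000479, limma). CAD averaged 16.2 ± 0.958 FPKM with ARV-825 and 12.97 ± 1.38 FPKM with OTX015 (0.30, 95% interval 0.141 to 0.464, adjusted p = 0.00465, limma). IMPDH1 averaged 58.1 ± 1.85 FPKM with ARV-825 and 47.4 ± 1.16 FPKM with OTX015 (0.29, 95% interval 0.197 to 0.378, adjusted p = 0.000172, limma). PAICS averaged 99.1 ± 2.81 FPKM with ARV-825 and 87.1 ± 0.626 FPKM with OTX015 (0.18, 95% interval 0.102 to 0.266, adjusted p = 0.00164, limma). For all of these the libraries of the compounds did not overlap.

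ATIC, the other gene of the 5, averaged 53.6 ± 3.9 FPKM with ARV-825 and 45.9 ± 3.47 FPKM with OTX015 (log2 difference 0.22, 95% interval 0.075 to 0.365, adjusted p = 0.0146, limma). This call was lost without ARV-825 replicate 3 (0.16, adjusted p = 0.0545, limma) or without OTX015 replicate 3 (0.16, adjusted p = 0.0531, limma). The remaining genes did not pass. The difference was 0.012 for PPAT (95% interval -0.167 to 0.191, adjusted p = 0.909, limma) and 0.095 for GART (-0.0076 to 0.197, adjusted p = 0.101). It was -0.095 for IMPDH2 (-0.219 to 0.029, adjusted p = 0.169, limma), -0.17 for UMPS (-0.347 to -0.0026, 0.0758) and -0.14 for CTPS1 (-0.285 to 0.0058, 0.0909). GART passed after the libraries were rescaled by median ratios (0.13, adjusted p = 0.0336, limma). IMPDH2 passed without ARV-825 replicate 1, the library with mitochondrial genes at 0 (-0.16, adjusted p = 0.0124, limma). UMPS passed without ARV-825 replicate 2 (-0.22, adjusted p = 0.0487, limma) or without OTX015 replicate 2 (-0.25, adjusted p = 0.0145, limma), and CTPS1 without OTX015 replicate 1 (-0.20, adjusted p = 0.0302, limma).

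RUNX1 shRNA for 72 h, compared with shNT, gave another picture. The first and the middle gene of the purine chain, PPAT and PAICS, fell, as did UMPS, while IMPDH1, CAD and CTPS1 rose, so 3 of the 10 genes were lower and 3 higher. Among all 10925 tested genes, 13.8% were called lower and 13.5% higher, 27.4% in all. The median log2 change was -0.013 over the 10 genes and -0.0091 over all tested genes. The groups did not overlap for 7 of 10 genes and for 44.1% of all tested genes. None of the 10 (0) was lower by at least 2-fold, beside 0.165% of all tested genes.

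PAICS had 101, 101 and 97.2 FPKM with RUNX1 shRNA, against 148, 143 and 145 FPKM with shNT. It changed most of the 10 genes, with a difference of means of -31.4% (log2 change -0.54 ± 0.027, adjusted p = 6.72e-06, limma) and the groups far apart. PPAT, its neighbour on the opposite strand, had 12.9, 11.7 and 13.6 FPKM with RUNX1 shRNA, against 17.1, 17.4 and 17.5 FPKM with shNT. The difference of means was -26.6% (log2 change -0.42 ± 0.056, adjusted p = 0.00112, limma). GART had 49.0, 58.1 and 55.9 FPKM with RUNX1 shRNA, against 59.2, 63.3 and 60.7 FPKM with shNT. These groups did not overlap, but the change of -0.17 ± 0.059 did not pass (adjusted p = 0.0662, limma). It passed in 2 of 12 alternative settings, among them the fit without RUNX1 shRNA replicate 2 (-0.22, adjusted p = 0.0329, limma). ATIC had 90.3, 83.6 and 88.4 FPKM with RUNX1 shRNA, against 90.6, 92.5 and 86.3 FPKM with shNT. Its groups overlapped, with a change of -0.038 (95% interval -0.125 to 0.049, adjusted p = 0.495, limma).

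IMPDH1 had 72.8, 70.4 and 76.6 FPKM with RUNX1 shRNA, against 64.8, 66.1 and 64.1 FPKM with shNT, and rose by 0.17 ± 0.036 (adjusted p = 0.00949, limma). IMPDH2 had 309, 295 and 303 FPKM with RUNX1 shRNA, against 295, 288 and 295 FPKM with shNT. Its groups overlapped, and the change was 0.047 (95% interval -0.012 to 0.105, adjusted p = 0.211, limma). CAD had 29.4, 29.5 and 27.4 FPKM with RUNX1 shRNA, against 26.0, 24.1 and 23.1 FPKM with shNT, and rose by 0.23 ± 0.051 (adjusted p = 0.0121, limma). DHODH had 9.17, 8.38 and 9.47 FPKM with RUNX1 shRNA, against 8.93, 9.34 and 8.49 FPKM with shNT. It is the step after CAD, and its groups overlapped (0.012, 95% interval -0.131 to 0.155, adjusted p = 0.907, limma).

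UMPS had 23.4, 21.2 and 21.0 FPKM with RUNX1 shRNA, against 24.1, 26.0 and 24.3 FPKM with shNT (log2 change -0.17 ± 0.052, adjusted p = 0.0396, limma). CTPS1 had 58.3, 60.2 and 64.1 FPKM with RUNX1 shRNA, against 54.2, 51.9 and 57.1 FPKM with shNT (0.16 ± 0.046, adjusted p = 0.0339, limma). Both calls were close to the threshold. Of 12 alternative settings, UMPS passed in 4 and CTPS1 in 6, and both kept their direction in all 12. UMPS was lost without RUNX1 shRNA replicate 2 (adjusted p = 0.1, limma) or 3 (0.0988) and without shNT replicate 1 (0.066), 2 (0.135) or 3 (0.0786). CTPS1 was lost without RUNX1 shRNA replicate 2 (adjusted p = 0.0634, limma) or 3 (0.085) and without shNT replicate 1 (0.0874) or 2 (0.115).

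Ratios of 2 genes within a library are free of a constant scaling factor of that library. They are not free of quantile normalization, which sets values by rank. They were compared by an exact permutation test, two-sided, in which 3 libraries against 3 cannot give a p under 0.1. Over 12 such comparisons the smallest adjusted p was 0.171, and none could have passed. IMPDH2 was 6.24 ± 0.378 times IMPDH1 with ARV-825 and 8.17 ± 0.252 times IMPDH1 with OTX015, against 4.22 ± 0.19 times in control (SD, n = 3 libraries). The 3 groups did not overlap (exact p = 0.1 for each pair). With RUNX1 shRNA the ratio was 4.13 ± 0.149, against 4.50 ± 0.132 with shNT, also without overlap (exact p = 0.1). PAICS was 7.86 ± 0.732 times PPAT with RUNX1 shRNA, against 8.37 ± 0.221 times with shNT, with overlapping groups (exact p = 0.3). It was 7.90 ± 0.295 times PPAT with ARV-825 and 7.01 ± 0.256 times with OTX015, without overlap (exact p = 0.1). Each compound overlapped control, at 7.40 ± 0.731 times (exact p = 0.4 for each). PAICS was 1.14 ± 0.0586 times ATIC with RUNX1 shRNA, against 1.62 ± 0.066 times with shNT, without overlap (exact p = 0.1). The same ratio was 1.85 ± 0.133 with ARV-825 and 1.91 ± 0.14 with OTX015, against 1.62 ± 0.101 in control. ARV-825 overlapped control (exact p = 0.2) and OTX015 did not (exact p = 0.1).

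**Figure D3:**
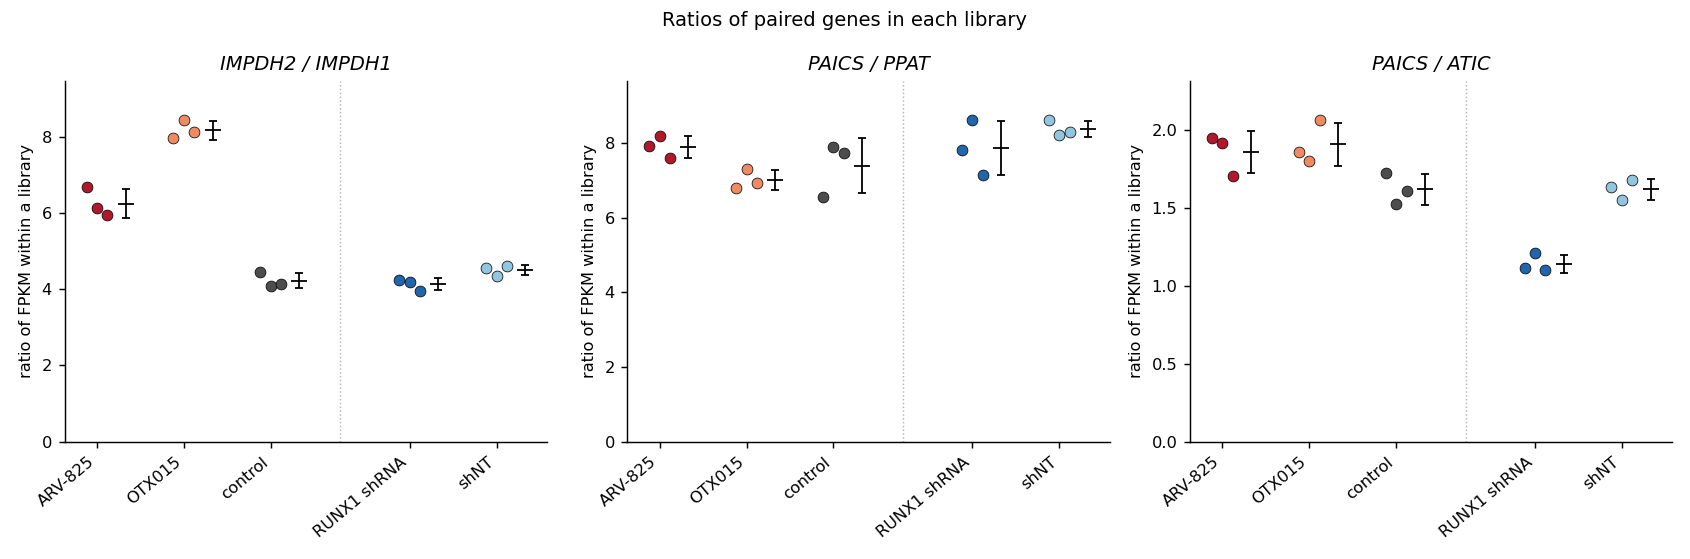
Ratio of FPKM of 2 genes within each library (vertical axis, from 0), by group (horizontal axis). Dots are libraries and bars beside them the mean ± SD of 3 libraries. IMPDH2 over IMPDH1 separates OTX015, ARV-825 and control, PAICS over PPAT overlaps between RUNX1 shRNA and shNT, and PAICS over ATIC is lower in every RUNX1 shRNA library than in any shNT library.

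Other genes of nucleotide metabolism were read from lists chosen by textbook role. Of 65 tested genes in 8 such lists, 36 were lower and 20 higher with ARV-825 (median log2 change -0.27), and 34 were lower and 12 higher with OTX015 (median -0.17). Of 66 tested with RUNX1 shRNA, 12 were lower and 4 higher (median -0.014). Over all tested genes the shares called lower and higher were 38.4% and 35.8% with ARV-825, and 33.5% and 36.1% with OTX015. With RUNX1 shRNA these shares were 13.8% and 13.5%, 27.4% in all. The remaining purine steps fell with both drugs in 4 of 5 tested genes and rose in 1. PFAS, which acts between GART steps of the chain, averaged 13.9 ± 0.51 FPKM with ARV-825 and 10.2 ± 0.761 FPKM with OTX015, against 23.6 ± 0.261 FPKM in control. ADSS, the adenylosuccinate synthase that leads IMP to AMP, averaged 20.2 ± 1.32 FPKM with ARV-825 and 22.9 ± 0.516 FPKM with OTX015, against 42.0 ± 1.81 FPKM in control. The gene that rose was its muscle-type relative ADSSL1, by 0.52 ± 0.121 with ARV-825 and 0.32 ± 0.121 with OTX015. With RUNX1 shRNA, 1 of the 5 passed, ADSS at -0.31 ± 0.032 (adjusted p = 0.000336, limma), and PFAS was at 0.0033 (adjusted p = 0.973, limma).

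Of the other pyrimidine steps, 2 of 4 genes fell and 1 rose with ARV-825, and 3 fell and 0 rose with OTX015. Shares of all tested genes called lower and higher were 38.4% and 35.8% with ARV-825, and 33.5% and 36.1% with OTX015. NME1, a nucleoside diphosphate kinase, changed by -0.30 ± 0.043 with ARV-825 and -0.63 ± 0.043 with OTX015, and the kinase CMPK1 rose by 0.19 ± 0.043 with ARV-825. CTPS2, the weakly expressed relative of CTPS1, was at 1.35 ± 0.0298 FPKM with RUNX1 shRNA, against 2.42 ± 0.21 FPKM with shNT (log2 change -0.54 ± 0.079, adjusted p = 0.00175, limma). It was the only one of the 4 called there, beside 27.4% of all tested genes. In the supply of PRPP, 4 of 7 genes fell and 2 rose with ARV-825, and 4 fell and 1 rose with OTX015, beside the same shares. RPE and RPIA, enzymes of the pentose phosphate route, changed by -0.78 ± 0.084 and -0.43 ± 0.084 with ARV-825 and by -0.35 ± 0.084 and -0.93 ± 0.084 with OTX015. The PRPP synthetase subunit PRPS2 changed by 0.16 ± 0.055 with ARV-825 and by -0.33 ± 0.055 with OTX015, and its partner PRPSAP2 rose by 0.19 ± 0.068 and 0.23 ± 0.068. With RUNX1 shRNA 2 of the 7 fell, beside 13.8% of all tested genes, with PRPS2 among the 2 at -0.12 ± 0.04 (adjusted p = 0.0492, limma).

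Folate enzymes supply carbon units to GART, ATIC and thymidylate synthase. The list of folate supply also held the serine synthesis genes PHGDH, PSAT1 and PSPH and the carriers SLC19A1 and SLC25A32. Of its 17 tested genes, 11 fell and 3 rose with ARV-825, beside 38.4% and 35.8% of all tested genes. With OTX015 9 fell and 4 rose, beside 33.5% and 36.1%. The folate carrier SLC19A1 fell furthest, to 4.82 ± 0.358 FPKM with ARV-825 and 4.11 ± 0.275 FPKM with OTX015, against 13.8 ± 0.469 FPKM in control. With RUNX1 shRNA 2 of 17 fell and 3 rose, from SLC19A1 at -0.21 ± 0.061 to the mitochondrial folate enzyme ALDH1L2 at 0.48 ± 0.058. The 2 that fell with RUNX1 shRNA were SLC19A1 and PSAT1, and PHGDH was among the 3 that rose. Over all tested genes 13.8% were called lower there and 13.5% higher. MTHFD2L, another mitochondrial folate enzyme, rose by 0.69 ± 0.121 with ARV-825.

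Deoxynucleotide enzymes turn ribonucleotides into DNA precursors. Of 7 tested, 3 rose and 2 fell with ARV-825, beside 35.8% and 38.4% of all tested genes, and 2 rose and 2 fell with OTX015, beside 36.1% and 33.5%. The ribonucleotide reductase subunit RRM2 averaged 185 ± 8.35 FPKM with ARV-825 and 262 ± 14.6 FPKM with OTX015, against 137 ± 6.79 FPKM in control. RRM2B, the p53-inducible subunit, rose by 0.75 ± 0.063 with ARV-825 and 0.55 ± 0.063 with OTX015. DTYMK, thymidylate kinase, changed by -0.41 ± 0.067 with ARV-825 and -0.57 ± 0.067 with OTX015, and DCTD, which deaminates dCMP, by -0.28 ± 0.051 and -0.63 ± 0.051. With RUNX1 shRNA 1 of 7 fell, beside 13.8% of all tested genes. This was thymidylate synthase TYMS, at -0.12 ± 0.032 (adjusted p = 0.0265, limma).

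Salvage reuses bases and nucleosides. Of 14 tested genes, 7 were higher and 7 lower with ARV-825, and 2 were higher and 6 lower with OTX015, beside the same shares of all tested genes. UCK2, uridine-cytidine kinase, averaged 21.2 ± 1.75 FPKM with ARV-825 and 24.7 ± 0.889 FPKM with OTX015, against 71.6 ± 3.92 FPKM in control. Thymidine kinase TK1 averaged 36.6 ± 2.7 FPKM with ARV-825 and 27.2 ± 2.54 FPKM with OTX015, against 19.1 ± 0.865 FPKM in control. Purine nucleoside phosphorylase PNP stood at 258 ± 7.25 FPKM with ARV-825 and 258 ± 7.92 FPKM with OTX015, against 518 ± 11.9 FPKM in control. PNP led the falls in this list with RUNX1 shRNA, at 266 ± 2.16 FPKM, against 368 ± 2.17 FPKM with shNT (log2 change -0.47 ± 0.021, adjusted p = 4.12e-06, limma). There 2 of 14 salvage genes fell and 0 rose, beside 13.8% and 13.5% of all tested genes.

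Breakdown enzymes had 3 of 7 tested genes higher and 2 lower with ARV-825, beside 35.8% and 38.4% of all tested genes. With OTX015 2 were higher and 2 lower, beside 36.1% and 33.5%. AMP deaminase AMPD2 changed by -1.17 ± 0.07 with ARV-825 and -0.93 ± 0.07 with OTX015, and rose by 0.24 ± 0.052 with RUNX1 shRNA. The pyrimidine-degrading DPYD rose by 0.85 ± 0.078 with ARV-825, and the nucleotidase NT5C2 by 0.34 ± 0.053 with OTX015. With RUNX1 shRNA 1 of 8 rose and 1 fell, beside 13.5% and 13.8% of all tested genes. The gene that fell was thymidine phosphorylase TYMP, at -0.27 ± 0.055. All 4 tested nucleoside transporters fell with both drugs, beside 38.4% of all tested genes with ARV-825 and 33.5% with OTX015. SLC29A2 averaged 1.32 ± 0.107 FPKM with ARV-825 and 1.46 ± 0.153 FPKM with OTX015, against 4.66 ± 0.107 FPKM in control. With RUNX1 shRNA 2 of these 4 fell, beside 13.8% of all tested genes, with SLC29A2 at -0.25 ± 0.064. All adjusted p-values of genes said here to have risen or fallen were below the 0.05 threshold (limma).

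**Figure D4:**
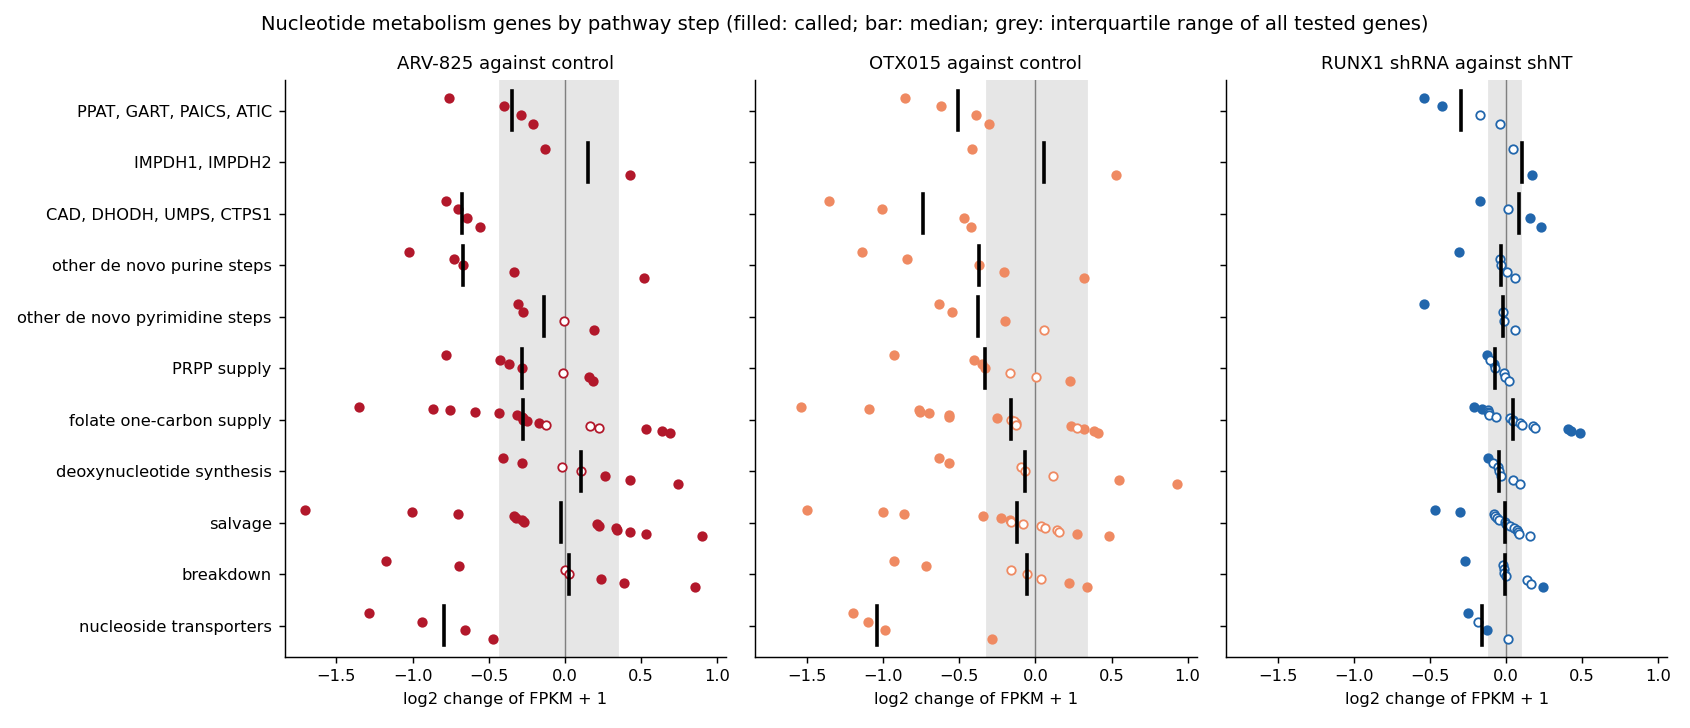
Log2 change of FPKM + 1 (horizontal axis) of every tested gene in each step of nucleotide metabolism, for each drug against control and for RUNX1 shRNA against shNT. Each dot is a gene, filled where called, black bars are list medians, and the grey band is the interquartile range of all tested genes. The 4 pyrimidine synthesis genes and the nucleoside transporters lie to the left with both drugs, while deoxynucleotide genes lie on both sides of 0.

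The genes whose profile over the 9 drug libraries was nearest to the mean profile of the 10 enzymes were taken from outside all lists. Likeness was the Euclidean distance between log2 values centred on each gene's own mean. The nearest were NOP58, a core protein of box C/D small nucleolar RNPs (distance 0.104), EBNA1BP2, a ribosome assembly factor (0.107), UNC93B1, which carries Toll-like receptors (0.108), MFSD1, a lysosomal transporter (0.116), and NKRF, a nucleolar repressor protein (0.119). Among the 10 enzymes themselves ATIC was nearest to their mean, at 0.239, and IMPDH2 farthest, at 1.37.

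Strand is not stated for these libraries, so reads of genes that overlap on opposite strands cannot be told apart. In GENCODE release 29, 275 of 7751 exonic bases of GART (3.55%) overlap SON, 121 of 5439 of PPAT overlap a long non-coding RNA, and 93 of 2773 of IMPDH2 overlap an antisense gene. Pseudogenes named after PAICS (7), IMPDH1 (7) and PPAT (2) are annotated, and the sources used here do not say how reads shared with such copies were counted.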

How the data were processed

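RNA sequencing of OCI-AML5 cells gave 2 tables of protein-coding genes, of 9 drug libraries and 6 shRNA libraries. Per the submitters' processing notes, TopHat2 2.0, Cufflinks 2.0 and hg19 were used. The tables name no unit. The deposited values were read as FPKM, made by the authors with Cufflinks, which gives that unit, and as quantile normalized separately per table, from an abbreviation in the table names. Depth is unknown. No test crosses the tables.

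Groups came from the treatment labels, and the series calls the samples biologic triplicates without saying what was replicated. The p-values therefore reflect library-to-library spread, which may be technical. Left out were 16 pseudoautosomal Y copies per table. Values were tested as log2(FPKM + 1), which understates changes of low genes, with limma 3.58.1 in R 4.3.3 (mean-variance trend, two-sided, Benjamini-Hochberg over all tested genes, mean of at least 1 FPKM). The drug groups shared 1 fit. The code was tested on simulated data. The 10 genes and the lists were chosen with earlier results of these data known. Of each list, the called gene with the largest rise and fall per comparison was named, except 1 that is not reported here. Promoters came from RefSeq, GRCh38.p14. Alternatives were a pseudocount of 0.1, no filter, a mean of at least 5, median-ratio rescaling, no trend, a replicate block, fits of 6 libraries only and leaving out each library.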

Additional observations from a re-analysis of the deposited data

How the results depend on the processing

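The count of the 10 genes called stayed within 1.5 times its value under every alternative run. Leaving out 1 library at a time gave 9 to 10 called genes for ARV-825 against control, 10 for OTX015 against control, 4 to 6 for ARV-825 against OTX015 and 4 to 6 for RUNX1 shRNA against shNT. Over all genes it gave 7492 to 7900, 6895 to 7176, 5573 to 6147 and 1997 to 2840 called, against 8025, 7528, 6282 and 2988 with every library. With median-ratio rescaling, OTX015 against control had 3609 genes higher and 3879 lower, against 3901 and 3627 as deposited, so which direction was the more frequent over all genes depended on scaling. At a mean of at least 5 FPKM, DHODH was not tested in the drug experiment. Directions turned for 2 uncalled genes only. PPAT between ARV-825 and OTX015 ran from -0.0153 to 0.0539 with 1 library left out, and was below 0 without OTX015 replicate 2 (-0.0153), ARV-825 replicate 3 (-0.0105) or ARV-825 replicate 1 (-0.00719). DHODH with RUNX1 shRNA ran from -0.0218 to 0.0572, and was below 0 without RUNX1 shRNA replicate 3 (-0.0218), shNT replicate 3 (-0.0196) or RUNX1 shRNA replicate 1 (-0.000513). With RUNX1 shRNA, UMPS and CTPS1 were also lost with no filter on low values (adjusted p = 0.0882 and 0.089, limma) and with no mean-variance trend (0.0647 and 0.075). The cause was not tested. The depth of the libraries is unknown, which limits what can be said of genes of low level, such as DHODH, ADSSL1 and CTPS2.

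Replicate numbers are not said to mark a shared day or culture. Deviations of same-numbered libraries from their group means correlated at -0.321 to 0.0613 in the drug experiment and -0.00304 to 0.0612 in the shRNA experiment, so the numbers were not taken as pairs. With the replicate block the called genes numbered 10, 10, 5 and 6 of the 10, as without it, and 7771, 7262, 5884 and 2585 over all genes. With RUNX1 shRNA, GART passed under the block (-0.17, adjusted p = 0.0278, limma) and UMPS did not (adjusted p = 0.0662).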
